A study of Mus musculus with 6 samples.

Results

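The genes described here encode 10 surface antigens of blood stem and progenitor cells: Cd34, Cd48, Cd93, Cd27, Cd38, Cd9, Cd44, Cd47, Cd53 and Cd63. They were chosen by gene name from the 55471 gene IDs of the deposited expression table, and all 10 were among the 13348 genes that could be tested. The names come from the CD nomenclature, in which a surface protein of leukocytes is numbered after the group of antibodies that bind it. RNA sequencing compared 3 libraries of mouse cells with LIN28B and MLL-ENL (L28BME) and 3 libraries of cells with MLL-ENL alone (ME). MLL-ENL is a fusion protein of acute leukaemia. LIN28B binds RNA in fetal blood stem and progenitor cells and keeps precursors of let-7 microRNAs from being processed. Cells of both groups were GMLPs, granulocyte-monocyte-lymphoid progenitors of bone marrow. The sort took cells without lineage antigens that carried Kit, Sca1 and CD48 but not CD150, and both groups were then kept in culture with doxycycline (DOX) for 3 days before RNA was taken. The promoters that drive the transgenes, the full alleles, and the age and number of the mice were not stated in the labels, and neither was whether replicates came from separate animals. The p-values below therefore cover the spread among these 6 libraries alone, which may be technical. Lin28b was at 11.2, 11.7 and 11.9 TPM in L28BME and was listed at 0 in the 3 ME libraries.

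Surface antigens of this kind are used to separate stem cells from progenitors and one progenitor class from another, because their levels change as cells commit to a lineage. They belong to several protein families. CD34 is a sialomucin that carries ligands of selectins, CD48 belongs to the SLAM family, CD93 is a C-type lectin-like receptor, and CD27 is a receptor of the TNF receptor superfamily. CD38 is an enzyme that breaks down NAD at the cell surface, CD44 is the main receptor for hyaluronan, and CD47 is the ligand of the phagocyte receptor SIRPA, which holds back engulfment. CD9, CD53 and CD63 are tetraspanins, proteins with several membrane spans that organise other membrane proteins into patches. The deposited values are TPM, a transcript abundance corrected for transcript length and scaled to a fixed total per library, so levels of different genes can be compared. They measure RNA of a whole gene and not surface protein or single isoforms. The sequencing depth behind a TPM value is unknown, and no counting interval is given.

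L28BME cells had less Cd48, Cd63 and Cd34 RNA and more Cd9 and Cd38 RNA than ME cells. Cd93 was also called higher, but in none of the 6 fits that lacked 1 library. The differences were small except for Cd38, a gene at 2.01 ± 0.139 TPM in L28BME cells and 0.886 ± 0.0200 TPM in ME cells (mean ± SD over 3 libraries per group, as for all such values). Cd48 fell by 23.1% and Cd9 was 35.3% higher in mean TPM. Cd44 was 44.3% higher in mean TPM, and 1 L28BME library carried much of that difference. The gene was called only without that library (limma adjusted p = 0.0085) and did not pass the test with all 6. Cd27, Cd47 and Cd53 did not pass the test either. With limma's test against a minimum fold change of 1.2, 0 of the 10 genes were called, and 3 had an unadjusted p under 0.05. Genes with an adjusted p under 0.05 were called (limma on log2(TPM + 1), Benjamini-Hochberg over all genes tested), and 14.9% of all genes tested were called. Of the 10 genes, 3 were called higher, where 8.28% of all genes were, and 3 were called lower, where 6.60% were. Genes of higher abundance were called more often, with 22.0% of the 1919 genes at or above the mean level of Cd27. Cd38 reached 1 TPM in the L28BME libraries alone and so entered the test through the group in which it was higher. Among the 9 genes with at least 1 TPM in every library, 5 were called. L28BME and ME values were fully apart for 8 of the 10 genes, against 36.7% of all genes tested. The median log2 fold change of the 10 genes was -0.02, and that of all genes tested was 0.00. In bulk RNA, fewer cells that carry a transcript and less of it per cell cannot be told apart.

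**Figure D1:**
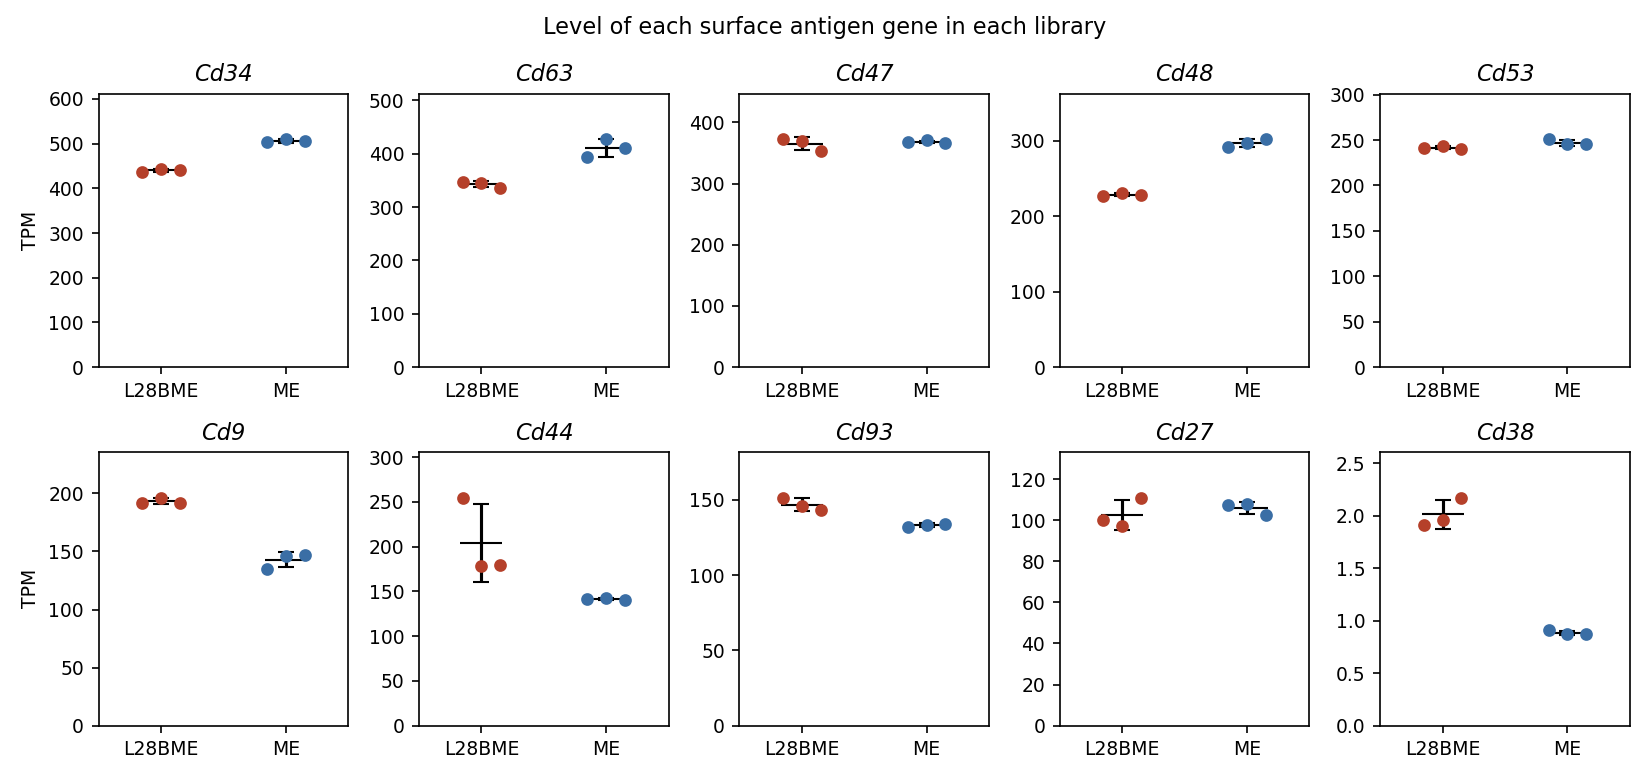
Level of each of the 10 genes (y axis, TPM, starting at 0) in the 3 L28BME and the 3 ME libraries. Points are libraries, horizontal bars are means and whiskers are SD; the groups are apart for 8 genes, all but Cd47 and Cd27, with a narrow gap for Cd53, and 1 L28BME library stands high for Cd44.

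The order of the levels was led by Cd34 in both groups. In L28BME cells the order from high to low was Cd34, Cd47, Cd63, Cd53, Cd48, Cd44, Cd9, Cd93, Cd27 and Cd38. The ranges of the L28BME libraries overlapped between Cd48 and Cd44 and between Cd44 and Cd9, so those neighbours were not apart. In ME cells the order was Cd34, Cd63, Cd47, Cd48, Cd53, Cd9, Cd44, Cd93, Cd27 and Cd38, and the ranges of Cd9 and Cd44 overlapped. Cd63 stood below Cd47 in L28BME and above it in ME, and Cd48 stood below Cd53 in L28BME and above it in ME. The ratio of Cd63 to Cd47 TPM within a library was 0.931, 0.933 and 0.951 in L28BME, against 1.07, 1.15 and 1.12 in ME. The ratio of Cd48 to Cd53 was 0.938, 0.947 and 0.949 in L28BME, against 1.16, 1.21 and 1.23 in ME. Both pairs thus changed places in every library. All genes but Cd38 had means above 100 TPM in each group, and Cd34 exceeded 98.0% of all genes tested in mean level, while Cd38 exceeded 5.56%. The sum over the 10 genes was 2324, 2252 and 2225 TPM in L28BME and 2324, 2381 and 2354 TPM in ME, and these sums touched.

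The promoters of Cd48 and Cd9 are shown because these genes had the smallest adjusted p in each direction, and that of Cd34 because it was the most abundant of the 10 genes. Sequences are windows of 300 bases from RefSeq (GRCm38.p6), given 5′ to 3′ on the strand of the gene. The most common layout was 250 bases before to 50 bases after the annotated gene start. It held for 74.7% of 11459 plus-strand genes with a single window. Windows of the 10 genes need not have this layout for the loci given below. The Cd38 window, from 43868559, lies after the start of its locus at 43868553. Capitals mark matches on either strand to AACNG, the core bound by MYB, which drives transcription in blood progenitors.
Cd48 promoter, chr1:171681742-171682041, plus strand: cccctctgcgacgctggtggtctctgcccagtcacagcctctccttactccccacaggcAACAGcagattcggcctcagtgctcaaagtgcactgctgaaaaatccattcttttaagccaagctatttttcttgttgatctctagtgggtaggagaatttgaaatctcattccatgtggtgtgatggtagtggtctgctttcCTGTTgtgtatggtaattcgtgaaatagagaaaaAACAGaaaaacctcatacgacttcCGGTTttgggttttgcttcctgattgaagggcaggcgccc
Cd9 promoter, chr6:125494711-125495010, minus strand: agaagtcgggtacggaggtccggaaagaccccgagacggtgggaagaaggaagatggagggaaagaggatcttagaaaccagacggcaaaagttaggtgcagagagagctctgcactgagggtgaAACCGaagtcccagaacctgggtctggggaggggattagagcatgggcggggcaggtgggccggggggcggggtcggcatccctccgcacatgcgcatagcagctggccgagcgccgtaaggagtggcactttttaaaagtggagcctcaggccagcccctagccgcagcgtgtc
Cd34 promoter, chr1:194938571-194938870, plus strand: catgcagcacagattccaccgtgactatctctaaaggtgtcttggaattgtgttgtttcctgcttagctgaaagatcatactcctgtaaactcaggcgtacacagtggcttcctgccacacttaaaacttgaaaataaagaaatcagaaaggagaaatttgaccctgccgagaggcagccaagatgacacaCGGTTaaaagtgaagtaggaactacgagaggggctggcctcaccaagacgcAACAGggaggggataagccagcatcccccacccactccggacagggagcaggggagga
The Cd48 window held 4 matches, the Cd34 window 2 and the Cd9 window 1. Such a match stood in 80.3% of all 32851 promoter windows of this length, and 8 of the 9 genes with a window had at least 1. AGATAA, the GATA factor motif, was matched in 2 of the 9 genes, Cd38 and Cd44, and in 11.2% of all windows. GAGGAA, a motif of ETS factors, was matched in 3 of them, Cd44, Cd53 and Cd63, and in 28.3% of all windows. Matches to different motifs overlapped in 2 places. A match to these letters is a description and was not tested as a binding site.

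Because LIN28B acts on let-7, the annotated 3′ UTRs of the 10 genes were searched for its seed match. The mature let-7a sequence is shown with its seed, bases 2 to 8, in capitals.
let-7a-5p, RefSeq, GRCm38.p6, chromosome 13: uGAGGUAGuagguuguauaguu
The complement of this seed, CTACCTC, was in none of the longest annotated 3′ UTRs of the 10 genes (GENCODE, GRCm38), which ran from 82 bases in Cd63 to 4603 bases in Cd93. Among all 21045 genes with a 3′ UTR, 9.02% held it. This says only that these letters are not in those UTRs.

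Cd48 encodes the SLAM family protein that the sort itself required, a partner of CD244. It was at 226, 231 and 228 TPM in the L28BME libraries, against 291, 297 and 302 TPM in the ME libraries. Every L28BME library was below every ME library, with a gap wider than the spread within either group. The log2 fold change was -0.38 (SE 0.027, limma adjusted p = 8.9e-04), and Cd48 kept its call without any 1 of the 6 libraries, at adjusted p = 0.00558 to 0.00722. The gene (ENSMUSG00000015355) lies on chromosome 1, from 171682009 to 171705258 on the plus strand of GRCm38. Of the other genes in the sort, Ly6a, which encodes Sca1, was at 3.18, 1.38 and 1.65 TPM in L28BME and 10.3, 11.8 and 9.64 TPM in ME (log2 fold change -1.96, adjusted p = 0.00376). Kit, the stem cell factor receptor, was at 79.2 ± 8.10 TPM in L28BME and 94.1 ± 15.7 TPM in ME and did not pass (adjusted p = 0.311). Slamf1, which encodes CD150, was at 0.706, 0.526 and 0.670 TPM in L28BME and at 0, 0.209 and 0.151 TPM in ME, below the minimum for the test. In the fit with no filter on low values, over 23940 genes, Slamf1 was called higher (log2 fold change 0.55, limma adjusted p = 0.0259). Depth is unknown, so counting error at such low levels cannot be judged and no conclusion is drawn from that call. The RNA levels of the sort genes after culture thus included very low Ly6a in L28BME and Slamf1 below 1 TPM in every library.

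Among the other SLAM family receptors and their adaptors, 5 of 11 were tested, 2 were called higher and none lower, with a median log2 fold change of 0.13. The shares over all genes tested were 8.28% higher and 6.60% lower. Sh2d1b1, which encodes the SLAM adaptor EAT-2, was at 9.60, 8.49 and 9.28 TPM in L28BME, against 3.55, 4.21 and 3.54 TPM in ME (log2 fold change 1.09, limma adjusted p = 0.00146). Slamf9 was at 4.81 ± 0.235 TPM in L28BME and 2.02 ± 0.368 TPM in ME (adjusted p = 0.00495). Cd244a, the receptor of CD48, was at 28.2 ± 5.13 TPM in L28BME and 25.4 ± 3.08 TPM in ME and did not pass (adjusted p = 0.612). Ly9 and Cd84 did not pass either, at adjusted p = 0.305 and 0.446. The call of Cd48 as lower therefore stood beside receptors that were not called and 2 genes that were called higher.

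Cd34 encodes the sialomucin that marks most blood progenitors. Its level was 436, 444 and 441 TPM in L28BME, against 503, 510.0 and 505 TPM in ME. The groups were far apart for the spread within them, which was 0.853% of the mean in L28BME and 0.734% in ME. The log2 fold change was -0.20 (SE 0.023, limma adjusted p = 0.00385), with adjusted p = 0.0158 to 0.0209 without any 1 library. The gene (ENSMUSG00000016494) spans 194938819 to 194961279 on the plus strand of chromosome 1, and Gm16897, a gene model on the opposite strand that overlaps its exons, was listed at 0 in every library. Podxl, which encodes podocalyxin, a sialomucin of the same family, moved the other way and was at 27.9 ± 0.678 TPM in L28BME and 20.9 ± 1.24 TPM in ME (log2 fold change 0.40, adjusted p = 0.00886). It was the only one of 4 tested genes of the CD34 family and its selectin partners to be called. Over all genes tested, 14.9% were called.

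Markers of endothelium, a tissue that also carries CD34 and CD93, were examined beside these genes. Of 7 such markers 3 were tested, and their summed level was 181 to 184 TPM in L28BME and 215 to 220 TPM in ME. Cdh5, Kdr, Emcn and Tek were below 0.5 TPM in all 6 libraries, and most of the sum came from Pecam1 and Egfl7. Tie1, also tested, was at 8.02, 7.39 and 9.05 TPM in L28BME, against 9.90, 10.1 and 13.2 TPM in ME. The groups did not overlap for Tie1, but it was not called (log2 fold change -0.39, limma adjusted p = 0.105). Pecam1, which encodes CD31, a ligand of CD38, was at 114, 115 and 110 TPM in L28BME, against 162, 163 and 163 TPM in ME (log2 fold change -0.52, SE 0.030, limma adjusted p = 4.63e-04). Egfl7 was called higher, at 61.4 ± 2.82 TPM in L28BME and 44.0 ± 5.48 TPM in ME (adjusted p = 0.0252), and its call was lost without ME replicate 2 or any 1 L28BME library (adjusted p up to 0.0808).

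Cd93 encodes a receptor of early progenitors, B cell precursors and endothelium. The gene (ENSMUSG00000027435) is on chromosome 2, 148436640 to 148443563, minus strand. Its level was 151, 146 and 143 TPM in L28BME, against 132, 133 and 134 TPM in ME. The groups did not overlap, and the log2 fold change was 0.14 (SE 0.033, limma adjusted p = 0.0407). This call was lost without any 1 of the 6 libraries, at adjusted p = 0.0583 to 0.110. Of the relatives and partners of CD93, 4 of 8 were tested, 2 were called higher and 1 lower. The shares over all genes tested were 8.28% higher and 6.60% lower. Igfbp7, a secreted protein that binds CD93, was at 81.8 ± 3.65 TPM in L28BME and 105 ± 3.95 TPM in ME (log2 fold change -0.36, adjusted p = 0.00663). Thbd, thrombomodulin, a lectin-like receptor of the same group, was at 6.57 ± 0.472 TPM in L28BME and 4.41 ± 0.716 TPM in ME (adjusted p = 0.0476), and without any 1 library it was not called (adjusted p = 0.0544 to 0.134). The higher members of this list numbered 0 or 1 without any 1 library. Mmrn2, another ligand of CD93, was listed at 0 throughout.

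Cd9 had the smallest adjusted p of the tetraspanin genes. It was at 192, 196 and 192 TPM in L28BME, against 135, 146 and 147 TPM in ME. All L28BME libraries lay well above the highest ME library, and the log2 fold change was 0.43 (SE 0.042, limma adjusted p = 0.00217). The call held without any 1 library, at adjusted p = 0.00577 to 0.0129. Cd9 (ENSMUSG00000030342) lies on chromosome 6, from 125460266 to 125494791 on the minus strand, and Gm26728, which overlaps it on the opposite strand, was below 0.3 TPM in every library. CD9 is abundant on megakaryocytes and platelets. Of 9 markers of that lineage 6 were called higher in L28BME, where 8.28% of all genes tested were, or 5 without any 1 library. Their summed level was 193 to 211 TPM in L28BME and 120 to 125 TPM in ME. The part of these cells in the level of Cd9 was not tested.

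Cd63, the tetraspanin of late endosomes and granules, was lower. Its locus (ENSMUSG00000025351) is chromosome 10, 128900989 to 128912822, plus strand. It was at 347, 345 and 336 TPM in L28BME, against 394, 427 and 411 TPM in ME. No library of one group reached the range of the other, although the ME libraries were spread over 4.07% of their mean (SD). The log2 fold change was -0.26 (SE 0.037, limma adjusted p = 0.00793), and it was called without any 1 library as well (adjusted p = 0.0136 to 0.0343). CD63 is a granule membrane protein of basophils and mast cells. Of 8 markers of these cells 6 were tested, and 3 (Mcpt8, Gzmb and Cpa3) were called lower, or 2 to 4 without any 1 library. Over all genes tested, 6.60% were called lower. Ms4a2 had a log2 fold change of -0.02 (limma adjusted p = 0.951), and Fcer1a and Prss34 did not pass (adjusted p = 0.0685 and 0.0634). The summed level of the list was 345 to 349 TPM in L28BME and 442 to 472 TPM in ME. The part of these cells in the level of Cd63 was not tested. Within a library, the ratio of Cd9 to Cd63 was 0.553, 0.570 and 0.571 in L28BME, against 0.343, 0.343 and 0.358 in ME.

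Cd53 encodes a tetraspanin found throughout the blood lineages. The locus of Cd53 (ENSMUSG00000040747) is chromosome 3, 106759921 to 106790149, minus strand. It was at 241, 244 and 240.2 TPM in L28BME, against 251, 245 and 245 TPM in ME. The groups did not overlap but were nearly level, and the gene was not called (log2 fold change -0.03, limma adjusted p = 0.464). The 95% interval of its fold change ran from 0.936 to 1.02. The 3 tetraspanins summed to 780, 785 and 768 TPM in L28BME and 780, 819 and 803 TPM in ME, and the groups touched.

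Of the 28 other tetraspanin genes examined, 17 were tested, 7 were called higher and none lower, with a median log2 fold change of 0.15. Over all genes tested, 8.28% were called higher and 6.60% lower. Cd81, a relative of Cd9, was at 159.8, 139.9 and 144 TPM in L28BME, against 108, 108 and 103 TPM in ME (log2 fold change 0.47, SE 0.057, limma adjusted p = 0.00419). Cd82 was at 53.6 ± 1.94 TPM in L28BME and 40.5 ± 1.14 TPM in ME (log2 fold change 0.39, adjusted p = 0.00396). Both kept their calls without any 1 library. Tspan3, Tspan9, Tspan13, Tspan31 and Tspan32 were the other called genes, with adjusted p = 0.025 to 0.0466. The count of 7 was 2 or 3 without any 1 library, which left Cd81 and Cd82 and at most 1 more. Tspan31 shares 29.2% of its exonic bases with Cdk4 on the opposite strand, which averaged 604 TPM, and whether the authors' quantification used strand was not stated. Cd37, Cd151 and Tspan2 did not pass (adjusted p = 0.292, 0.881 and 0.15). Of 20 tested tetraspanin genes with Cd9, Cd53 and Cd63 included, 8 were called higher, and Cd63 was the only gene called lower.

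**Figure D2:**
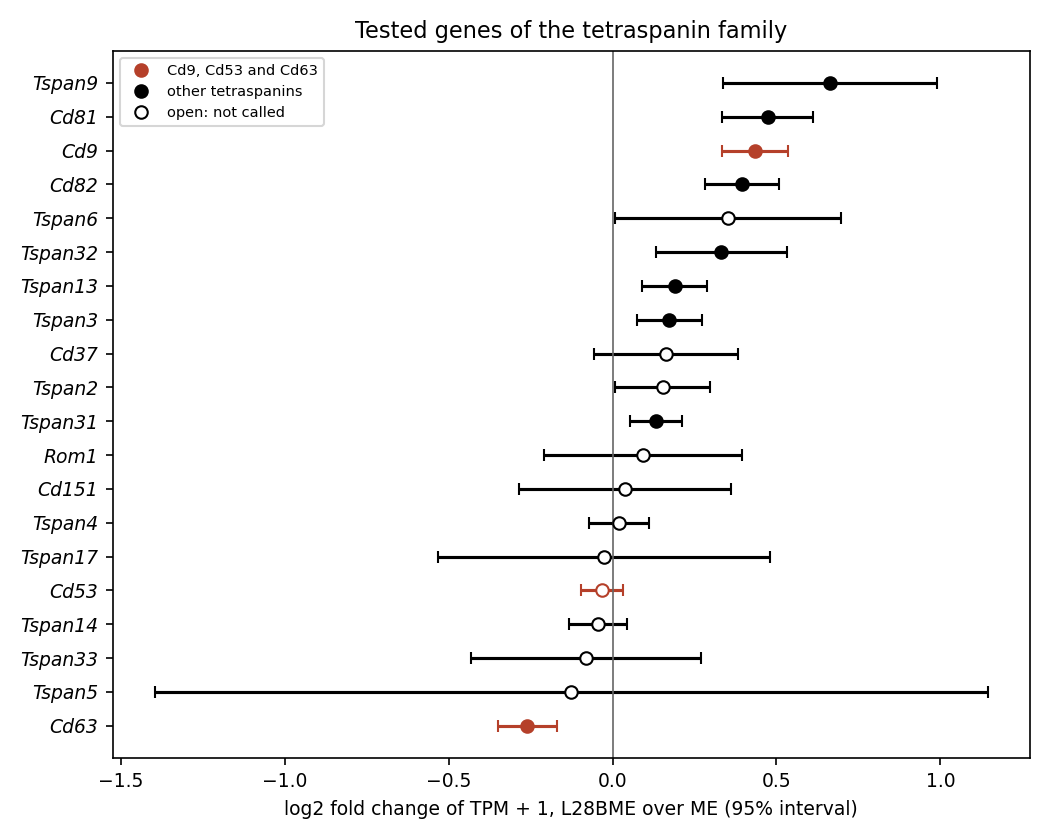
Log2 fold change of TPM + 1, L28BME over ME (x axis), with its 95% interval, for the 20 tested tetraspanin genes (y axis); filled points passed an adjusted p under 0.05, open points did not. Cd9 lies with Cd81 and Cd82 on the positive side, while Cd63, at -0.26, is the only filled point on the negative side.

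Of 15 partners of the tetraspanins and genes of endosomal sorting, 13 were tested, and 2 were called higher and 1 lower, where 14.9% of all genes tested were called. Lamp1, a membrane protein of lysosomes where CD63 also resides, was at 487, 489.7 and 501 TPM in L28BME, against 436, 432 and 443 TPM in ME (log2 fold change 0.17, limma adjusted p = 0.00863). Lamp2 was at 149 ± 12.5 TPM in L28BME and 185 ± 5.35 TPM in ME (adjusted p = 0.0259), and its call was lost without any 1 library other than L28BME replicate 3 (adjusted p up to 0.0821). Igsf8, which encodes a direct partner of CD9 and CD81, was at 58.6 ± 1.03 TPM in L28BME and 48.2 ± 3.59 TPM in ME (adjusted p = 0.0308). Its call was lost without any 1 library other than ME replicate 1 (adjusted p up to 0.0907). The count of higher genes was 1 or 2, and that of lower genes 0 or 1, without any 1 library.

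Cd44 encodes the hyaluronan receptor, and its values were uneven. Cd44 (ENSMUSG00000005087) maps to chromosome 2, 102811141 to 102901665, minus strand. The L28BME libraries were at 255, 179 and 179 TPM, against 142, 142 and 140.3 TPM in the ME libraries. All L28BME libraries were above all ME libraries, but L28BME replicate 1 stood 1.42-fold above the higher of the other L28BME libraries. The SD was 21.5% of the mean in L28BME and 0.760% in ME, and the gene did not pass (log2 fold change 0.51, SE 0.14, limma adjusted p = 0.0643). Without L28BME replicate 1 the log2 fold change was 0.34 and the gene was called (adjusted p = 0.0085), and without any 1 other library it was not (adjusted p = 0.0765 to 0.151). Over 10477 genes with a mean of at least 5 TPM, 1.08% had L28BME replicate 1 as far above the other libraries of its group, and this share was 0.945 to 1.29% for the other libraries. High values of single genes were thus no more frequent in L28BME replicate 1 than elsewhere. CD44 RNA is spliced into many isoforms, which gene-level TPM does not separate.

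**Figure D3:**
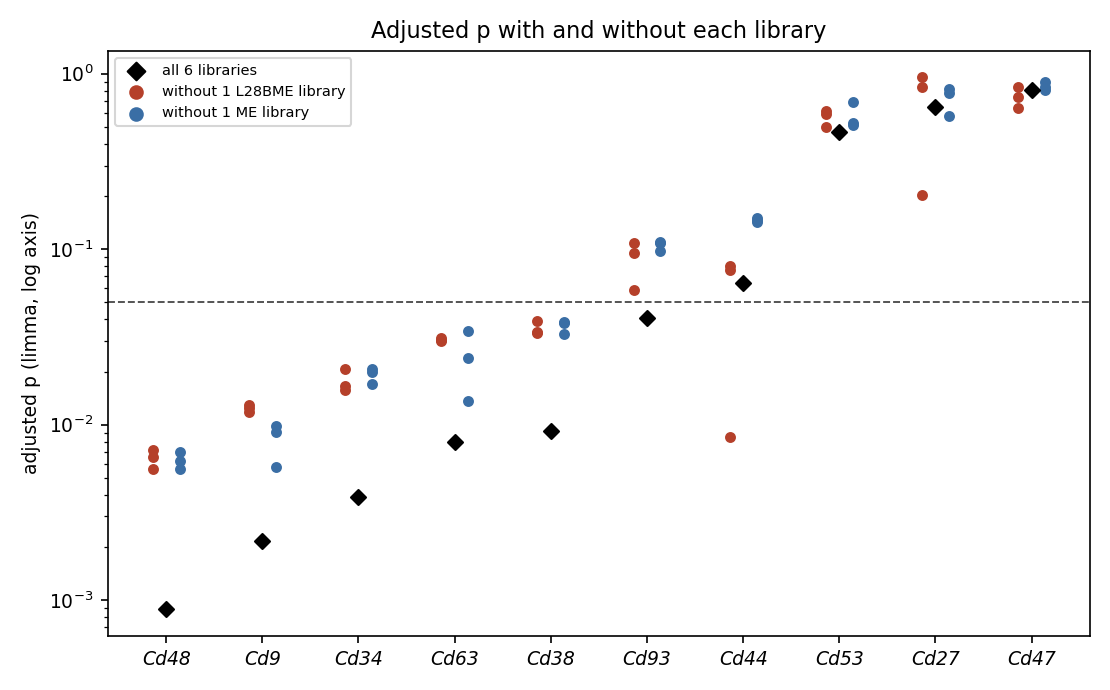
Adjusted p (y axis, log scale) of each of the 10 genes in the fit with all 6 libraries (diamonds) and in fits without 1 L28BME or 1 ME library (circles); the dashed line is 0.05. Cd48, Cd9, Cd34, Cd63 and Cd38 stay below the line, Cd93 lies above it in each fit that lacks a library, and Cd44 drops below it in 1 fit.

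Ligands of CD44, hyaluronan enzymes and cytoskeletal linkers were called higher in 5 of 11 tested genes and lower in 1, with a median log2 fold change of 0.12. The higher genes of this list numbered 2 or 3 without any 1 library. Over all genes tested, 8.28% were called higher and 6.60% lower. Spp1, which encodes osteopontin, a ligand of CD44, was at 82.3, 81.6 and 81.8 TPM in L28BME, against 57.3, 54.2 and 60.6 TPM in ME (log2 fold change 0.51, SE 0.049, limma adjusted p = 0.00213). Ezr, which encodes ezrin, a linker between CD44 and actin, was at 126 ± 0.950 TPM in L28BME and 107 ± 2.83 TPM in ME (log2 fold change 0.24, adjusted p = 0.00681). Both held their calls without any 1 library. Srgn, which encodes serglycin, a proteoglycan that binds CD44, was the gene called lower, at 1302 ± 29.0 TPM in L28BME and 1555 ± 28.6 TPM in ME (adjusted p = 0.00317). The related linker genes Rdx and Msn were called higher at adjusted p = 0.0184 and 0.0284. Rdx was not called without ME replicate 2 or 3 or L28BME replicate 1 or 2 (adjusted p up to 0.0648), and Msn was not called without any 1 library other than L28BME replicate 1 (adjusted p up to 0.09). Hmmr, another hyaluronan receptor, did not pass (adjusted p = 0.0672). The hyaluronan synthase genes Has1 and Has2 were listed at 0 in every library.

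Cd38 encodes the NAD-degrading enzyme and was the least abundant of the 10 genes. Cd38 (ENSMUSG00000029084) lies on chromosome 5, 43868553 to 43912375, plus strand. It was at 1.92, 1.96 and 2.17 TPM in L28BME, against 0.909, 0.875 and 0.873 TPM in ME. The groups were apart, and the ratio of the means was 2.27. On the log2(TPM + 1) scale, which understates changes at such levels, the log2 fold change was 0.68 (SE 0.10, limma adjusted p = 0.00917). The value was 1.10 with a pseudocount of 0.1. In a fit with no filter on low values, over 23940 genes, Cd38 was called at adjusted p = 0.0142. Against a minimum fold change of 1.2 it was not called (adjusted p = 0.0882). Bst1, which encodes the related enzyme CD157, was at 1.62, 1.72 and 0.270 TPM in L28BME and at 0.276, 0.106 and 0.144 TPM in ME, too low for the test. The groups overlapped for Bst1, since L28BME replicate 3 lay within the ME range. Of 9 tested genes in the list of CD38 relatives, its ligand Pecam1 and NAD enzymes, 3 were called lower and none higher, or 1 to 3 lower without any 1 library. Besides Pecam1 these were Enpp1 and Nt5e, surface enzymes of nucleotide breakdown. The shares over all genes tested were 8.28% higher and 6.60% lower. Enpp1 was at 1.30 ± 0.152 TPM in L28BME and 2.54 ± 0.0211 TPM in ME (adjusted p = 0.0125), and its call was lost without ME replicate 3 (adjusted p = 0.0512). Nt5e, which encodes CD73, was at 2.94 ± 0.273 TPM in L28BME and 4.58 ± 0.233 TPM in ME (adjusted p = 0.0196), and its call was lost without ME replicate 2 or 3 or L28BME replicate 1 or 3 (adjusted p up to 0.0717). Nampt, the rate-limiting enzyme of NAD salvage, did not pass (adjusted p = 0.263).

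Cd47 encodes the ligand of SIRPA. Cd47 (ENSMUSG00000055447) maps to chromosome 16, 49800533 to 49915010, plus strand. It was at 373, 369 and 353 TPM in L28BME, against 368, 371 and 367 TPM in ME. The groups overlapped and Cd47 was not called (log2 fold change -0.01, SE 0.030, limma adjusted p = 0.803). The 95% interval of the fold change ran from 0.941 to 1.04. Of 7 tested genes of CD47 receptors, ligand and phagocytosis signals, 3 were called higher and 1 lower, or 2 to 3 higher without any 1 library. The shares over all genes tested were 8.28% higher and 6.60% lower. Thbs1, which encodes thrombospondin-1, the secreted ligand of CD47, was at 274, 266 and 275 TPM in L28BME, against 193, 187 and 193 TPM in ME (log2 fold change 0.51, SE 0.030, adjusted p = 4.89e-04). Calr, which encodes calreticulin, a surface signal for engulfment and a chaperone, was at 1974 ± 35.1 TPM in L28BME and 2497 ± 20.7 TPM in ME (log2 fold change -0.34, adjusted p = 7.71e-04). Lrp1, its receptor on phagocytes, was at 13.8 ± 0.695 TPM in L28BME and 6.73 ± 1.28 TPM in ME (adjusted p = 0.00636). Thbs1, Calr and Lrp1 kept their calls without any 1 library. Sirpa and Qpctl, the enzyme that modifies CD47 for SIRPA binding, did not pass (adjusted p = 0.638 and 0.695).

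Cd27 encodes a receptor of lymphoid-primed progenitors and lymphocytes. Cd27 (ENSMUSG00000030336) maps to chromosome 6, 125232622 to 125237010, minus strand, and overlaps the microRNA gene Mir8113 on the same strand. It was at 99.96, 97.2 and 111 TPM in L28BME, against 107, 108 and 102 TPM in ME. The groups overlapped and Cd27 was not called (log2 fold change -0.05, SE 0.058, limma adjusted p = 0.648). The 95% interval of the fold change ran from 0.878 to 1.07. Its ligand Cd70 and the adaptor Traf5 were listed at 0 in every library. The adaptors Traf2 and Traf3 and the CD27-binding protein gene Siva1 were tested, and limma called none of the 3 (adjusted p = 0.114 to 0.612, and none at an unadjusted p under 0.05 other than Siva1).

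**Figure D4:**
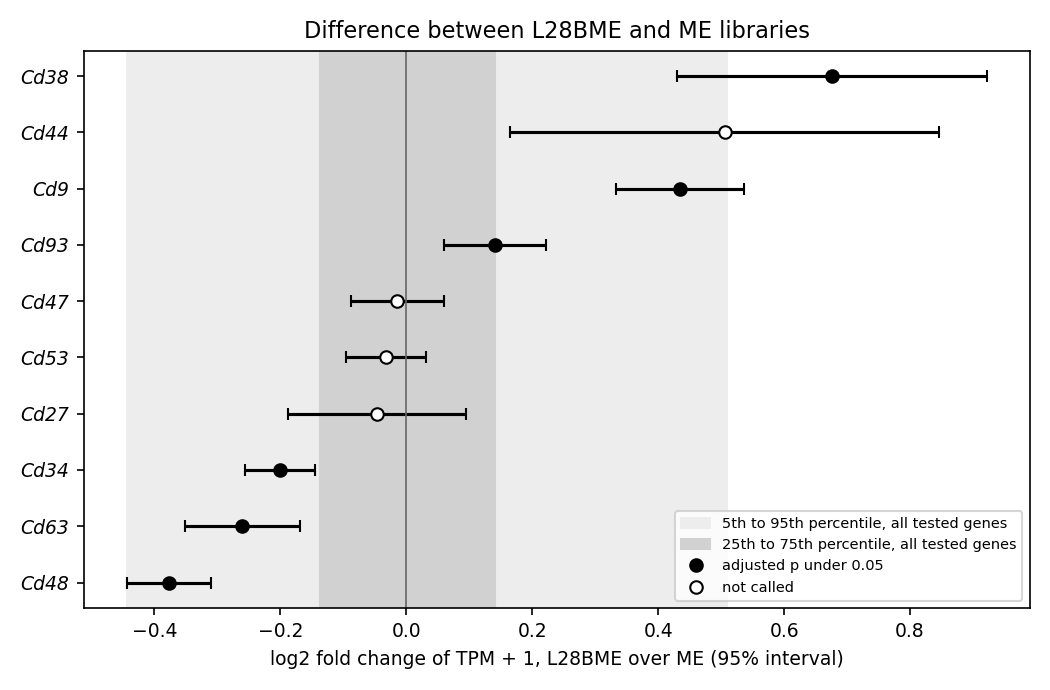
Log2 fold change of TPM + 1, L28BME over ME (x axis), with its 95% interval, for the 10 genes (y axis); filled points passed an adjusted p under 0.05, and grey bands hold the central part of all tested genes. The 25th to 75th percentile of all genes runs from -0.14 to 0.14 and the 5th to 95th from -0.44 to 0.51, and Cd38 lies outside the wider band.

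Other surface genes of stem and progenitor cells were called more often as higher. Of 24 such genes 21 were tested, 10 were called higher and 3 lower, or 8 to 9 and 3 without any 1 library, with a median log2 fold change of 0.10. Flt3, the receptor of FLT3 ligand, was at 189, 187 and 185 TPM in L28BME, against 92.6, 96.7 and 100.5 TPM in ME (log2 fold change 0.95, limma adjusted p = 1.6e-04). Eng, which encodes endoglin, was at 34.2, 34.3 and 35.7 TPM in L28BME, against 16.9, 19.1 and 17.9 TPM in ME (adjusted p = 6.79e-04). Spn, which encodes the sialomucin CD43, was among the genes called lower, at 286 ± 7.27 TPM in L28BME and 356 ± 7.74 TPM in ME (log2 fold change -0.32, adjusted p = 0.00251). Cd24a, also called lower, was at 335 ± 6.05 TPM in L28BME and 408 ± 7.73 TPM in ME (adjusted p = 0.00254). Cd34 and Cd48 were thus not alone among abundant surface genes in being lower. Of all genes tested, 8.28% were called higher and 6.60% lower.

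Pearson correlations between libraries were computed across genes on the log2(TPM + 1) scale, and genes are not independent of each other. They were 0.987 to 0.988 for libraries of the same group and 0.977 to 0.980 for libraries of different groups. The share of TPM from mitochondrially encoded genes was 4.49 to 4.85% in L28BME and 4.12 to 4.35% in ME. Markers of other cell types were examined as lists. Over all genes tested, 8.28% were called higher and 6.60% lower. Neutrophil markers were called higher in 5 of 7 tested genes (summed level 536 to 557 TPM in L28BME, 213 to 222 TPM in ME), or in 4 to 5 without any 1 library. B cell markers were called higher in 2 of 4 (61.3 to 65.5 TPM and 31.7 to 34.1 TPM), or 1 without any 1 library. Erythroid markers were called higher in 1 and lower in 1 of 5 (454 to 465 TPM and 518 to 525 TPM), with 0 or 1 higher without any 1 library. Monocyte and macrophage markers were called higher in 1 and lower in 3 of 6 (238 to 265 TPM and 366 to 396 TPM), with none higher and 2 to 3 lower without any 1 library. Itgam, among the 3 lower, shares 68.7% of its exonic bases with Gm49368 on the same strand, which averaged 14.5 TPM. How reads were divided between these gene models was not stated. Dendritic cell markers were called higher in 1 and lower in 3 of 7 (450.2 to 492 TPM and 404 to 429 TPM), with 1 to 2 higher and 1 to 2 lower without any 1 library. T and NK cell markers (2.46 to 4.52 TPM and 0.287 to 0.890 TPM) and stromal markers (27.2 to 28.8 TPM and 22.1 to 23.5 TPM) each had 1 tested gene, called higher, and in each list that call was lost without some 1 library. The T and NK cell gene was Il7r, which is also among the 10 higher stem and progenitor genes. It reached 1 TPM in the L28BME libraries alone, so it too entered the test through the group in which it was higher. The rest of that list was too low for the test. Cd3e, Cd8a and Ncr1 were listed at 0 in every library. Cd3g was at 0.801, 0.695 and 0.422 TPM in L28BME, against 0.262, 0 and 0 TPM in ME. Cd3d, Cd4 and Trac were above 0 in L28BME libraries alone, at no more than 0.523 TPM. Klrb1c was above 0 in libraries of both groups, at no more than 0.0634 TPM. The part of such cells in the levels of the 10 genes was not tested.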

How the data were processed

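RNA of DOX-cultured GMLPs was sequenced in 3 L28BME and 3 ME libraries. Per the submitters' processing notes, the tools of the authors were bcl2fastq, HISAT2, StringTie and DESeq2, and the build was GRCm38. Versions, and whether strand was used, were not given in the sources used here. Values in the deposited table are TPM per gene and library, made by the authors, which sum to between 999919 and 999996 per library. A deposited column of percent GC ran from 36.9 in Cd53 to 50.7 in Cd27 among the 10 genes and entered no test. TPM are not counts, so count models were not used and depth is unknown. Of 431 gene IDs on more than one entry, 0 had values on more than one.

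Genes with at least 1 TPM in at least 3 of 6 libraries were tested on log2(TPM + 1) by limma 3.58.1 (R 4.3.3; two-sided, prior variance trended on mean level) with Benjamini-Hochberg adjustment over all 13348. Replicate numbers were not treated as pairs. The 10 genes and the gene lists were chosen with earlier results of these data known, and lists are described by counts only. Named genes were the 10 genes, in each list up to 4 tested genes with the lowest p, closest relatives, ligands and receptors, and the sort genes. Nampt, Has1, Has2, Cd24a, Traf5, Mmrn2, Tspan2, Tspan3, Tspan31, Tspan32, Cdh5, Kdr, Emcn, Tek, Fcer1a and Ms4a2 were added after their values were seen. So were Cd3e, Cd8a, Ncr1, Cd3g, Cd3d, Cd4, Trac and Klrb1c. The procedure was tested on simulated data. Alternatives were pseudocounts of 0.1 and 0.5, other filters, scalings and limma options, a replicate term, leaving out each library, summed overlapping gene models and a minimum fold change of 1.2. Figures were drawn with matplotlib 3.10.9 in Python 3.11.15. Some genes of the lists enter the counts but are not reported here by name.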

Additional observations from a re-analysis of the deposited data

How the results depend on the processing

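Of the 10 genes, Cd48, Cd34, Cd63 and Cd9 kept their direction and their call in every alternative except a minimum fold change of 1.2. With that minimum (limma's treat), 0 of the 10 genes were called higher and 0 lower, although 3 had an unadjusted p under 0.05, and over all genes 245 were called higher and 144 lower. Cd93 lost its call when all expressed genes were tested (adjusted p = 0.0551), without the intensity trend (0.0977) or without any 1 library. Cd47, not called in any alternative, had log2 fold changes from -0.029 (without L28BME replicate 1) to 0.010 (without L28BME replicate 3), a change of sign. Replicate numbers are not stated to pair the samples, and the deviations of same-numbered libraries correlated at -0.032, -0.074 and -0.052. With a replicate block, 1 of the 10 genes was called higher (Cd9) and 3 lower, with Cd38 at adjusted p = 0.0554 and Cd93 at 0.112, and 548 genes were called higher and 400 lower over all. Without any 1 library, 617 to 693 genes were called higher and 461 to 582 lower, and 2 to 3 of the 10 genes were called higher and 3 lower. Cd38 could not be tested with a minimum of 5 TPM. Median-ratio scaling, removal of mitochondrially encoded genes, restriction to protein-coding genes and summed gene models changed no call among the 10 genes. TPM hold no depth, so counting error at the level of Cd38 is unknown.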
